A study of Mus musculus with 12 samples.

Results

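The cytokine and inflammasome genes described here, 10 in all, belong to interleukin 1, interleukin 6 and pyroptosis biology and were followed across mouse liver libraries of an ischemia study. They were taken by gene symbol, Il1a, Il1b, Il1rn, Il1r1, Il18, Il6, Nlrp3, Casp1, Casp4 and Gsdmd, and all 10 were found among the 53796 genes listed. RNA sequencing of total RNA from liver tissue gave 12 libraries, 3 in each of 4 groups. Of these, RIPK1 D138N carries a point mutation in the kinase RIPK1, known to remove its kinase activity, and TNFR1/2 KO is labelled a knockout of both TNF receptors. WT and Sham are both of wild-type genotype, and only Sham carries a sham label. The series title names ischemia, and the other 3 groups were taken as its ischemia arm. The labels give no strain, age or sex, no duration of ischemia and no time of collection, and do not say in which cells the mutations are present. No sham library of a mutant genotype was analysed here, so for the mutants a difference present at baseline cannot be told apart from one arising after ischemia. Whether the libraries within a group came from different animals is not stated in the labels, and p-values then measure only the spread between these samples.

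Interleukin 1 alpha and beta are cytokines that act through the receptor IL1R1, and the receptor antagonist encoded by Il1rn occupies that receptor without signalling. Interleukin 1 beta and interleukin 18 are made as inactive precursors. An inflammasome, assembled by a sensor such as NLRP3, activates caspase-1, which cleaves both precursors and the pore-forming protein gasdermin D. Caspase-4 of the mouse, historically called caspase-11, cleaves gasdermin D in response to intracellular lipopolysaccharide. Interleukin 6, commonly induced downstream of interleukin 1, drives the acute-phase response of hepatocytes. Macrophages of the liver (Kupffer cells), neutrophils and monocytes are known sources of several of these cytokines, and RNA levels do not report cleavage or secretion.

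Levels are FPKM, fragment counts scaled to transcript length and library depth, as the authors deposited them. On the fragment scale recovered from the lowest values, a transcript of 1 kilobase at 1 FPKM stood for 12.04 to 65.23 fragments, with the coarsest steps in Sham. Differences are log2 fold changes of FPKM + 1 from limma, a linear model fitted to the 11728 genes that reached 1 FPKM in 3 or more libraries, and a gene is called at a Benjamini-Hochberg adjusted p under 0.05. This scale understates the change of genes below a few FPKM. Il1a, Il1b, Il1rn, Il1r1, Il18, Il6, Casp4 and Gsdmd passed that filter, and Nlrp3 and Casp1 did not, so 8 of 10 members were tested. Xist, transcribed from the inactive X chromosome of female cells, read 20.1 and 23.4 FPKM in RIPK1 D138N replicates 2 and 3 and at most 0.0824 FPKM in the other 10 libraries. Fits without these 2 libraries leave replicate 1 as the only RIPK1 D138N library (n = 1) and take the spread from the other groups, so replicate 1 is assumed to vary as those libraries do, and a call lost there can come from the smaller n. Transcripts of both TNF receptors remained listed in the libraries labelled TNFR1/2 KO, with Tnfrsf1a at 15.3 to 21.9 FPKM, and a level per gene does not show whether part of it is deleted. Hepatocyte markers dominated every library, although Alb, the albumin gene, is listed at 0 in all 12. The median of all tested genes stood at -0.36 in WT vs Sham, 0.11 in RIPK1 D138N vs WT and 0.14 in TNFR1/2 KO vs WT. After median-of-ratios scaling these medians were -0.10, 0.04 and 0.04.

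In WT compared with Sham, Il1rn, Il6 and Casp4 rose while Il1r1, Il18 and Gsdmd fell. These were 6 of 8 tested members, against 58.2% of all tested genes called in either direction (16.4% higher and 41.9% lower). The members' median was 0.44. With median-of-ratios scaling 4 members were higher and 2 lower, and with quantile normalization 3 were higher and 2 lower. Over all genes, median-of-ratios scaling turned 1918 higher and 4913 lower calls into 2834 and 3515.

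In RIPK1 D138N compared with WT, Il18 rose and Il1rn, Il1r1 and Il6 fell, so 4 of 8 members were called, against 51.8% of all genes (29.8% higher and 21.9% lower). The members' median was -0.74. With replicate 1 as the only RIPK1 D138N library 3 members were called, and without replicate 1 the count was 6. In TNFR1/2 KO compared with WT, Il18 and Gsdmd rose and Il1rn, Il1b and Il6 fell. That made 5 of 8, against 47.1% of all genes (29.6% higher and 17.5% lower), with a median of -0.58. After quantile normalization 1 member was higher and 4 were lower in TNFR1/2 KO, and over all genes 3466 higher and 2054 lower calls became 2859 and 3093. Both comparisons use the same 3 WT libraries.

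**Figure D1:**
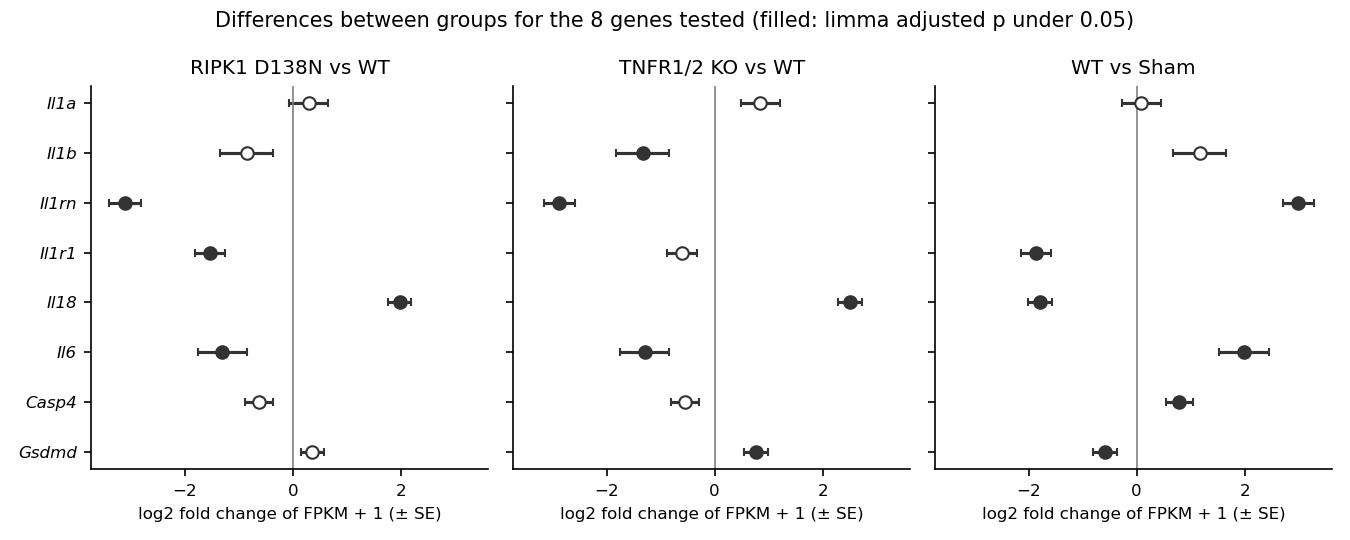
Log2 fold change of FPKM + 1 with its standard error for the 8 tested genes in RIPK1 D138N vs WT, TNFR1/2 KO vs WT and WT vs Sham (3 libraries a group); filled points are called by limma at an adjusted p under 0.05. Il1rn lies furthest below 0 in both mutants against WT, at -3.11 and -2.88, and, at this pseudocount of 1, furthest above 0 in WT vs Sham, at 3.0.

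The promoters of 4 members are shown because their motif letters can be set beside the direction of change. RefSeq tables on the GRCm38.p6 assembly, the mm10 build, held windows of 250 bases before 14 annotated starts of 9 members. The 4 motifs searched, on both strands, were NF-kappaB as GGGA, any 4 bases and CC, AP-1 as TGANTCA, C/EBP as TTNNGNAAT and the TATA box as TATAAA. The sequences below run 5′ to 3′ on the plus strand, with matched letters in capitals. They are Il1rn (chr2:24336610-24336859), Il6 (chr5:30012864-30013113) and Casp4 (chr9:5308599-5308848), the members that rose in WT, and Il18 (chr9:50554450-50554699), which fell in WT and rose in both mutants against WT.
Il1rn: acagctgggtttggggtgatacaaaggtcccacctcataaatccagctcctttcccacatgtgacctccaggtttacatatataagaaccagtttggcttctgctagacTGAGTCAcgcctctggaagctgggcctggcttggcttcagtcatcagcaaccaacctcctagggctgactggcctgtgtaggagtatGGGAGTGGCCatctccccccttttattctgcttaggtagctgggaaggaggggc
Il6: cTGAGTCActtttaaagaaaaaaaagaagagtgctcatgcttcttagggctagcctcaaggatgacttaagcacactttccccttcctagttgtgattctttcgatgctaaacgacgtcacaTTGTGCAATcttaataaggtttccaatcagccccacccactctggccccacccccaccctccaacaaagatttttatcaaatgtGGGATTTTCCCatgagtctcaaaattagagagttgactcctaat
Casp4: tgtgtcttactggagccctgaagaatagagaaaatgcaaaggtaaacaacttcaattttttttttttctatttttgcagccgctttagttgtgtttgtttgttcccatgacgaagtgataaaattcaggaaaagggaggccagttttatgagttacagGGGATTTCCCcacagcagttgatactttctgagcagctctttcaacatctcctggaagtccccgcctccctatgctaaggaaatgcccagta
Il18: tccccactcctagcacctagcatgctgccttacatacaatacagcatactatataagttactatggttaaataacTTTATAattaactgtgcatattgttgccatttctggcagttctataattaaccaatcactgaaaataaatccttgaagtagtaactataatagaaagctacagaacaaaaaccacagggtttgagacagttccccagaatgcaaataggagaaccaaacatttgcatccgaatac
Positions are counted in bases from the annotated start. The Il1rn window holds NF-kappaB letters from -54 to -45 and AP-1 letters from -141 to -135. Il1rn has 3 annotated starts, and these letters were found only in the window printed here. Which start was in use was not tested. In the Il6 window AP-1 letters lie from -249 to -243, C/EBP letters from -128 to -120 and NF-kappaB letters from -44 to -35, overlapping a match on the other strand from -43 to -34. The Casp4 window has NF-kappaB letters from -92 to -83, matched on both strands. The Il18 window holds only a TATA box match, on the minus strand, from -175 to -170. Letters of the NF-kappaB motif occurred in 17.6% of 32851 promoter windows of the same length, those of AP-1 in 6.75%, of C/EBP in 10.2% and of the TATA box in 12.4%. Over all 9 members, NF-kappaB letters were found in Il1rn, Il6, Nlrp3 and Casp4. AP-1 letters were found in Il1a, Il1rn and Il6, and C/EBP letters in Il1b, Il1rn, Il1r1 and Il6. The letters TATAAA were found in Il1b and Il1a, and in Il18 on the minus strand only. A match is a description of letters and not of binding, which was not measured.

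**Figure D2:**
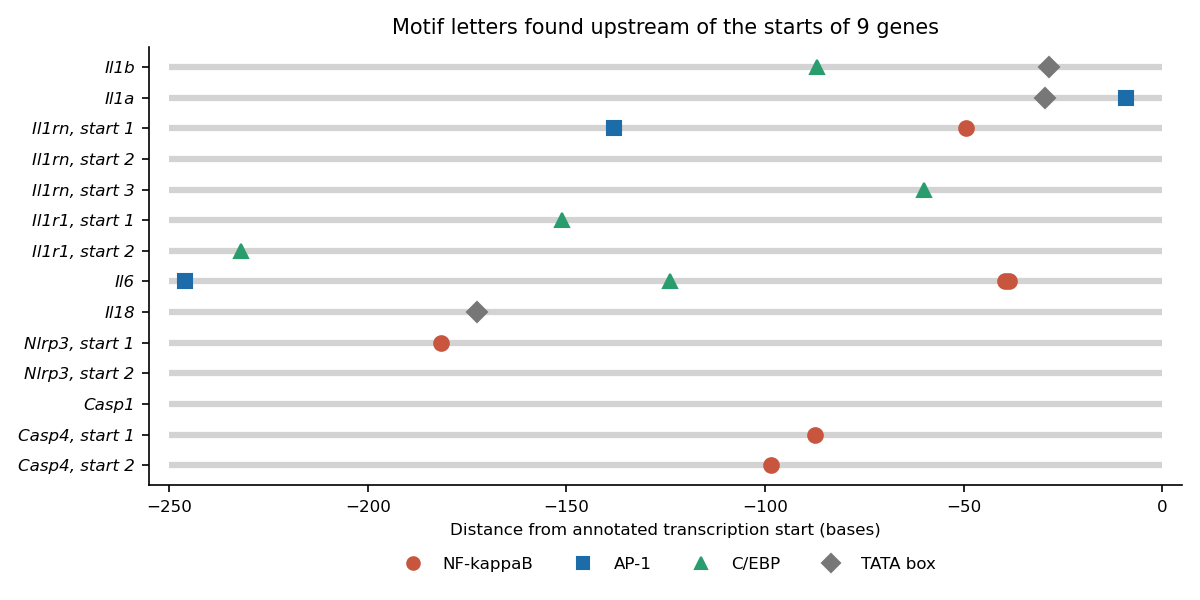
Positions of the 4 motifs in the 250 bases before each annotated start of 9 genes (x axis: distance from the start in bases; 1 line per start; markers: centre of a match on either strand). Il1rn start 1 and Il6 carry NF-kappaB and AP-1 letters in the same window, and Casp1 carries none of the 4 motifs.

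Il1rn (ENSMUSG00000026981, chr2:24336853-24351494, plus strand) encodes the interleukin 1 receptor antagonist and had the largest log2 fold changes of the 8 tested members in both mutants against WT, and with a pseudocount of 1 also in WT vs Sham. With a pseudocount of 0.1 Il6 changed more in WT vs Sham, at 4.81 against 3.603 for Il1rn. It read 1.58, 1.16 and 1.11 FPKM in RIPK1 D138N, 1.43, 3.08 and 0.909 in TNFR1/2 KO, 22.6, 12.5 and 22.7 in WT, and 1.15, 2.09 and 1.22 in Sham. All 3 WT libraries lay above the other 9, which overlapped one another. Mean levels were 1.28 ± 0.262 FPKM in RIPK1 D138N, 1.80 ± 1.13 in TNFR1/2 KO, 19.3 ± 5.87 in WT and 1.49 ± 0.521 in Sham (SD, n = 3 each). WT exceeded Sham 12.9-fold on the FPKM means, with a log2 fold change of 3.0 (SE 0.288, limma adjusted p = 2.96e-06). RIPK1 D138N lay at -3.11 against WT (adjusted p = 3.38e-06) and TNFR1/2 KO at -2.88 (adjusted p = 6.62e-06). All 3 calls held under every alternative tried. Against Sham neither mutant was called, at -0.11 (95% interval -0.73 to 0.51) for RIPK1 D138N and 0.12 (-0.50 to 0.74) for TNFR1/2 KO.

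Il1b (ENSMUSG00000027398, chr2:129364570-129371139, minus strand) encodes the secreted form of interleukin 1 that inflammasomes process. It read 5.07, 0.443 and 0.490 FPKM in RIPK1 D138N, 0.304, 1.38 and 0.546 in TNFR1/2 KO, 3.34, 1.85 and 5.21 in WT, and 1.59, 1.03 and 0.293 in Sham. All 3 WT libraries lay above all Sham and all TNFR1/2 KO libraries, but RIPK1 D138N replicate 1 lay within the WT range and replicates 2 and 3 below it. In TNFR1/2 KO vs WT the log2 fold change was -1.33 (SE 0.493, limma adjusted p = 0.0407), a call lost in 6 of 12 alternatives. These included leaving out TNFR1/2 KO replicate 1 or 3 or either of 2 WT libraries (limma adjusted p up to 0.147). WT vs Sham stood at 1.17 (SE 0.493, adjusted p = 0.0582). It passed with median-of-ratios scaling (1.34, adjusted p = 0.039), without 1 WT library (1.46, adjusted p = 0.0443) and fitted on those 2 groups alone (SE 0.323, adjusted p = 0.0117). RIPK1 D138N vs WT stood at -0.85 (adjusted p = 0.165) and depended on its libraries. Without replicate 1 it was -1.54 (adjusted p = 0.00307), and with replicate 1 alone (n = 1, the spread taken from the other groups) it was 0.52 (adjusted p = 0.399).

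Il1a (ENSMUSG00000027399, chr2:129299610-129309972, minus strand) encodes interleukin 1 alpha, which is active without inflammasome cleavage. Its level was 0.311, 1.08 and 0.920 FPKM in RIPK1 D138N, 3.34, 0.192 and 2.17 in TNFR1/2 KO, 0.494, 0.411 and 0.331 in WT, and 0.385, 0.426 and 0.189 in Sham. The WT and Sham libraries overlapped and were close together, while within each mutant group 1 library lay below every WT library and 2 lay above. No comparison was called, with TNFR1/2 KO at 0.85 against WT (limma adjusted p = 0.0696) and 0.93 against Sham (adjusted p = 0.0739). Without TNFR1/2 KO replicate 2 they were 1.39 against WT (limma adjusted p = 0.000465) and 1.48 against Sham (adjusted p = 0.00112). Those fits leave out the low library of the group. Il1a passed the filter only through TNFR1/2 KO replicates 1 and 3 and RIPK1 D138N replicate 2. The fits therefore cannot serve as a test of a rise in TNFR1/2 KO. The ratio of Il1a to Il1b, both per length, was 0.0612, 2.44 and 1.88 in RIPK1 D138N, 10.98, 0.139 and 3.96 in TNFR1/2 KO, 0.148, 0.223 and 0.0635 in WT, and 0.243, 0.415 and 0.646 in Sham. In 2 of 3 libraries of each mutant Il1a thus exceeded Il1b, and it did so in none of the WT and Sham libraries.

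Set against the summed FPKM of both agonists, the antagonist stood apart in WT. The ratio of Il1rn to Il1a plus Il1b was 0.294, 0.763 and 0.785 in RIPK1 D138N, 0.391, 1.96 and 0.335 in TNFR1/2 KO, 5.88, 5.52 and 4.10 in WT, and 0.585, 1.44 and 2.53 in Sham. Every WT library lay above the other 9, whose groups overlapped. The agonist sum itself overlapped between RIPK1 D138N (1.41 to 5.38 FPKM), TNFR1/2 KO (1.57 to 3.64) and WT (2.26 to 5.54), and lay at 0.482 to 1.97 in Sham. No test was made on this ratio, and an exact permutation test of 3 libraries against 3 cannot give a p below 0.1.

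Il1r1 (ENSMUSG00000026072, chr1:40225080-40317257, plus strand) encodes the signalling receptor of interleukin 1 and was lower in all 3 ischemia groups than in Sham. It read 7.55, 3.71 and 5.21 FPKM in RIPK1 D138N, 13.2, 9.55 and 10.4 in TNFR1/2 KO, 21.7, 10.7 and 21.6 in WT, and 53.6, 65.5 and 79.3 in Sham. Every Sham library lay above the other 9. The 3 RIPK1 D138N libraries were the lowest of the 12, and those of TNFR1/2 KO and WT overlapped. Against Sham the log2 fold change was -3.39 in RIPK1 D138N (SE 0.281, limma adjusted p = 1.00e-05), -2.47 in TNFR1/2 KO (adjusted p = 8.86e-05) and -1.87 in WT (adjusted p = 0.000103). RIPK1 D138N was also lower than WT (-1.53, adjusted p = 0.000604), and these 4 calls held under every alternative. TNFR1/2 KO vs WT stood at -0.61 (adjusted p = 0.0940), but at -0.74 (adjusted p = 0.0396) with median-of-ratios scaling, -1.06 (adjusted p = 0.0119) with quantile normalization and -0.92 (adjusted p = 0.0114) without 1 WT library. Il1r1 thus sat low in both mutants while Il1rn overlapped Sham libraries there.

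Il18 (ENSMUSG00000039217, chr9:50554827-50581840, plus strand) encodes interleukin 18, a cytokine of the interleukin 1 family, and was lowest in WT, where Il1rn was highest. Its level was 10.6, 12.3 and 8.10 FPKM in RIPK1 D138N, 15.5, 18.5 and 11.9 in TNFR1/2 KO, 1.72, 2.42 and 1.42 in WT, and 9.55, 6.90 and 10.2 in Sham. The 3 WT libraries lay below all others, every TNFR1/2 KO library lay above every Sham library, and RIPK1 D138N overlapped both of those groups. RIPK1 D138N stood 5.56-fold above WT on the FPKM means and TNFR1/2 KO 8.25-fold. The log2 fold changes were 1.98 (SE 0.216, limma adjusted p = 1.05e-05) and 2.51 (adjusted p = 2.47e-06), against -1.79 (adjusted p = 1.75e-05) in WT vs Sham, and all 3 held under every alternative. TNFR1/2 KO vs Sham was called at 0.72 (adjusted p = 0.0284) and lost in 5 of 12 alternatives, among them those without TNFR1/2 KO replicate 1 or 2 or 1 Sham library (limma adjusted p up to 0.101). Bco2, which encodes a carotenoid-cleaving enzyme, overlaps Il18 on the opposite strand. It read 5.04 to 7.16 FPKM in RIPK1 D138N, 4.94 to 7.22 in TNFR1/2 KO, 0.599 to 1.03 in WT and 2.62 to 3.37 in Sham, so its WT libraries were the lowest, as for Il18. Since the sources used here do not state the strand setting, fragments of the stretch both genes share cannot be told apart, and the part of Bco2 in the Il18 values was not tested.

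Il6 (ENSMUSG00000025746, chr5:30013114-30019981, plus strand) encodes interleukin 6 and was the member nearest to absent in Sham. It read 2.78, 0.108 and 0 FPKM in RIPK1 D138N, 0.513, 1.07 and 0.368 in TNFR1/2 KO, 4.42, 1.15 and 4.45 in WT, and 0.0172, 0 and 0 in Sham. The value above 0 in Sham stood for at most 1.0 fragment. All WT and all TNFR1/2 KO libraries lay above all Sham libraries and WT above TNFR1/2 KO, whereas RIPK1 D138N replicate 1 fell among the WT libraries and replicates 2 and 3 near Sham. In WT vs Sham the change of Il6 was 1.99 on the log2 scale (SE 0.455, limma adjusted p = 0.00229) and 4.81 with a pseudocount of 0.1, and the call held under every alternative. RIPK1 D138N vs WT stood at -1.31 (adjusted p = 0.0288) and TNFR1/2 KO vs WT at -1.30 (adjusted p = 0.0326). These calls were lost in 7 of 13 alternatives for RIPK1 D138N, including those without its replicate 2 or 3, and in 6 of 12 for TNFR1/2 KO, including those without its replicate 1 or 3. Both were lost without either of 2 WT libraries, and with 1 library left out the limma adjusted p reached 0.121 in RIPK1 D138N and 0.118 in TNFR1/2 KO. Without replicate 1 the RIPK1 D138N difference from WT was -1.92 (limma adjusted p = 0.00046), and with replicate 1 alone (n = 1) it was -0.08 (adjusted p = 0.907). Il1r2, the decoy receptor of interleukin 1, which was not tested, split in the same way within RIPK1 D138N, at 4.35 FPKM in replicate 1 against 0.0465 and 0.183 in replicates 2 and 3.

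**Figure D3:**
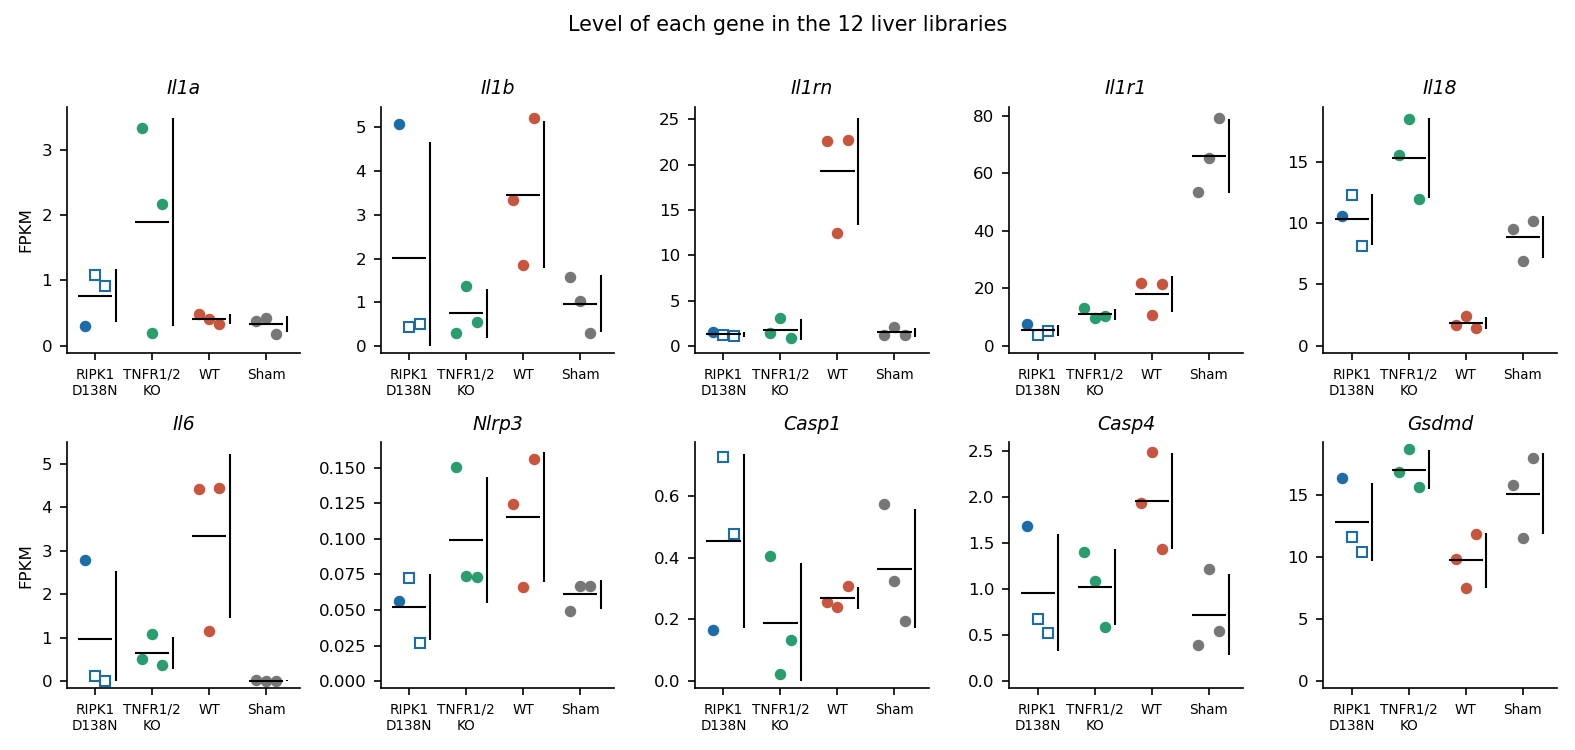
FPKM of each of the 10 genes in every library (points), with the group mean (line) and ± SD (bar, n = 3, cut at 0); open squares mark the Xist-positive RIPK1 D138N replicates 2 and 3. WT stands above the other groups for Il1rn and below them for Il18, Sham stands above the others for Il1r1, and RIPK1 D138N replicate 1 stands above its group for Il1b and Il6.

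Nlrp3 (ENSMUSG00000032691, chr11:59541568-59566956, plus strand), the sensor, and Casp1 (ENSMUSG00000025888, chr9:5298517-5307265, plus strand), the protease it activates, stayed under 1 FPKM in every library. Nlrp3 read 0.0564, 0.0726 and 0.0271 FPKM in RIPK1 D138N, 0.151, 0.0737 and 0.0732 in TNFR1/2 KO, 0.124, 0.0659 and 0.156 in WT, and 0.0490, 0.0669 and 0.0669 in Sham. Casp1 read 0.164, 0.726 and 0.475 FPKM in RIPK1 D138N, 0.405, 0.0240 and 0.132 in TNFR1/2 KO, 0.256, 0.241 and 0.309 in WT, and 0.573, 0.326 and 0.195 in Sham. Groups overlapped for both genes in WT vs Sham and in each mutant against WT. For Nlrp3 every TNFR1/2 KO library lay above every Sham library, at 0.0732 FPKM or more against at most 0.0669. RIPK1 D138N libraries lay below those of TNFR1/2 KO only by 0.0726 FPKM in replicate 2 against 0.0732 in TNFR1/2 KO replicate 3. At no more than 7.1 and 9.9 fragments, these 2 values cannot be told apart. The share of all genes separated in such ways was not counted. Casp1 overlapped in all 6 comparisons. The Casp1 values stood for 1.0 to 24.0 fragments and those of Nlrp3 for 25.5 fragments or fewer. With no filter on low values neither gene was called in any of the 6 comparisons. The smallest limma adjusted p of those fits was 0.124, for Nlrp3 in RIPK1 D138N vs WT (log2 fold change -0.08).

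Casp4 (ENSMUSG00000033538, chr9:5308828-5336783, plus strand) lies close to Casp1 on chromosome 9 and encodes the protease of the non-canonical pathway. Its level was 1.69, 0.671 and 0.518 FPKM in RIPK1 D138N, 1.40, 1.09 and 0.584 in TNFR1/2 KO, 1.93, 2.48 and 1.44 in WT, and 0.392, 1.22 and 0.547 in Sham. WT libraries lay above all Sham and all TNFR1/2 KO libraries, and RIPK1 D138N replicate 1 again fell among them. The Casp4 values in Sham stood for 17.8 fragments or fewer. WT vs Sham was called at 0.79 (SE 0.255, limma adjusted p = 0.0173) and lost in 4 of 12 alternatives, among them those without 1 of the WT or either of 2 Sham libraries (adjusted p up to 0.0699). Against WT, RIPK1 D138N stood at -0.62 (limma adjusted p = 0.0566) and TNFR1/2 KO at -0.55 (adjusted p = 0.0944). RIPK1 D138N was called without its replicate 1 (-0.88, adjusted p = 0.00985) and with median-of-ratios scaling (-0.69, adjusted p = 0.0484).

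Gsdmd (ENSMUSG00000022575, chr15:75862327-75867408, plus strand) encodes the pore former gasdermin D and was highest in TNFR1/2 KO on the group means. It read 16.4, 11.6 and 10.4 FPKM in RIPK1 D138N, 16.8, 18.6 and 15.6 in TNFR1/2 KO, 9.82, 7.45 and 11.8 in WT, and 15.7, 11.5 and 17.9 in Sham. TNFR1/2 KO lay above WT in every library, while WT overlapped both Sham and RIPK1 D138N. TNFR1/2 KO vs WT was called at 0.77 (SE 0.216, limma adjusted p = 0.0106) and lost only with quantile normalization (0.47, adjusted p = 0.0553). WT vs Sham was called at -0.59 (adjusted p = 0.0329), or -0.22 relative to the median of all genes. It was lost in 8 of 12 alternatives, among them median-of-ratios scaling (-0.26, adjusted p = 0.294) and quantile normalization (-0.06, adjusted p = 0.812), and without either of 2 WT or 2 Sham libraries (limma adjusted p up to 0.128). RIPK1 D138N vs WT stood at 0.36 (adjusted p = 0.177).

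In RIPK1 D138N vs Sham Il1r1 fell and no other member was called, which is 1 of 8 against 30.2% of all genes (7.51% higher and 22.7% lower). With replicate 1 as the only RIPK1 D138N library (n = 1, the spread taken from the other groups) Il1b stood at 1.68 (limma adjusted p = 0.0428) and Il6 at 1.91 (adjusted p = 0.0213), which describes that library and not the group. In TNFR1/2 KO vs Sham Il18 rose and Il1r1 fell, 2 of 8 against 25.6% of all genes (7.46% higher and 18.1% lower), a share close to that of all genes. Over all genes, median-of-ratios scaling turned 881 higher and 2658 lower calls in RIPK1 D138N vs Sham into 1291 and 1419, and 875 and 2127 in TNFR1/2 KO vs Sham into 1234 and 1193.

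Between the mutants, RIPK1 D138N vs TNFR1/2 KO, limma called 0 of 8 members against 0.929% of all genes (0.35% higher and 0.58% lower). Il1r1 and Il18 were under an unadjusted p of 0.05. The Il1r1 difference was -0.92 (95% interval -1.53 to -0.31, adjusted p = 0.166), with every RIPK1 D138N library below every TNFR1/2 KO library, and it was called without RIPK1 D138N replicate 1 (-1.14, adjusted p = 0.0404). For Il18 it was -0.52 (95% interval -0.99 to -0.06, adjusted p = 0.329), with overlapping libraries. The intervals were widest for Il1b (-0.59 to 1.55) and Il6 (-0.997 to 0.97), and a p above the threshold does not show that the mutants were alike.

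Cell type markers differed between groups beside these genes. In bulk tissue fewer cells of a type and less RNA per cell cannot be told apart. The 12 Kupffer cell and macrophage markers summed to 26.2 to 32.6 FPKM in RIPK1 D138N, 16.3 to 22.1 in TNFR1/2 KO, 79.3 to 109.8 in WT and 92.5 to 138.2 in Sham. In WT vs Sham 7 of their 10 tested members fell and Cd68, a lysosomal macrophage protein, rose. Among all genes 41.9% were lower and 16.4% higher in that comparison. Against WT, 4 fell in RIPK1 D138N (21.9% of all genes) and 8 in TNFR1/2 KO (17.5% of all genes), Cd68 among them in both. Cd68 read 1.13 to 1.74 FPKM in RIPK1 D138N, 1.26 to 3.11 in TNFR1/2 KO, 41.7 to 60.8 in WT and 2.14 to 2.715 in Sham, so its 3 WT libraries lay above all others, as for Il1rn. With a mean of 49.6 FPKM in WT, Cd68 made up a large part of the WT sums and little of the others. The WT sums therefore understate the fall of the other markers in WT vs Sham and overstate their distance from the mutants. The 10 neutrophil markers summed to 4.64 to 213 FPKM in RIPK1 D138N, 12.4 to 180 in TNFR1/2 KO, 5.02 to 284 in WT and 38.9 to 83.2 in Sham, and limma called none of the 6 tested in any comparison, with 0 at an unadjusted p under 0.05. The sums of the 6 monocyte markers overlapped between groups, at 20.1 to 40.3 FPKM in RIPK1 D138N, 9.65 to 24.0 in TNFR1/2 KO, 19.9 to 28.8 in WT and 19.2 to 53.0 in Sham. Of the 2 tested, Lyz2 fell in TNFR1/2 KO vs Sham (-1.95, limma adjusted p = 0.0230). Between the mutants neither was called, with 2 at an unadjusted p under 0.05. The 6 hepatocyte markers summed to 15411 to 16872 FPKM in RIPK1 D138N, 16238 to 19466 in TNFR1/2 KO, 6641 to 8299 in WT and 29401 to 34147 in Sham. Apoa1 alone averaged 8982 FPKM in RIPK1 D138N, 10542 in TNFR1/2 KO, 3522 in WT and 19423 in Sham. Apoa1, Cyp3a11, Ttr and Serpina1a were called higher in both mutants than in WT. Fgb was called lower, at -1.22 in RIPK1 D138N and -0.85 in TNFR1/2 KO. The 3 erythroid markers summed to 754 to 1546 FPKM in RIPK1 D138N, 845 to 1701 in TNFR1/2 KO, 67.8 to 124.9 in WT and 146.2 to 280.7 in Sham, and the 6 T and NK cell markers to 2.47 to 4.63, 0.849 to 3.07, 0.158 to 0.426 and 1.13 to 1.39 FPKM in the same groups. WT was thus lowest for both lists, as for Il18. The 5 cholangiocyte markers summed to 50.7 to 66.1 FPKM in RIPK1 D138N, 35.1 to 59.2 in TNFR1/2 KO, 65.9 to 200.7 in WT and 23.5 to 28.7 in Sham. The sum was highest in WT, although 1 WT library overlapped RIPK1 D138N, and Spp1 alone averaged 113 FPKM in WT. Sox9, Krt19 and Spp1 rose in WT vs Sham. Epcam averaged 0.228 FPKM in WT and rose in RIPK1 D138N (1.97) and TNFR1/2 KO (1.08) against WT. Sox9 went the other way, with log2 fold changes against WT of -2.85 in RIPK1 D138N and -1.42 in TNFR1/2 KO. Spp1 was also called lower in TNFR1/2 KO than in WT (-1.58). Krt19 averaged 6.96 ± 6.43 FPKM in RIPK1 D138N and 4.65 ± 3.78 in WT. The sum of the 6 stellate cell markers was highest in RIPK1 D138N (150.2 to 177.2 FPKM). It was 61.7 to 99.8 in TNFR1/2 KO, 100.4 to 125.1 in WT and 66.6 to 95.5 in Sham. Dcn alone averaged 118.6 FPKM in RIPK1 D138N, 56.1 in TNFR1/2 KO, 106.7 in WT and 60.0 in Sham. The list was split, as Colec11 fell in WT vs Sham (-1.72), where Dcn and Pdgfrb rose. Colec11 rose in TNFR1/2 KO vs WT (2.00), where Dcn and Pdgfrb fell. The 6 sinusoidal endothelial markers summed to 13.3 to 88.2 FPKM in RIPK1 D138N, 8.35 to 41.8 in TNFR1/2 KO, 14.7 to 17.7 in WT and 24.5 to 40.4 in Sham. Among them Clec4g fell in WT vs Sham and rose in both mutants against WT. Pecam1 was called in the opposite direction in the same comparisons, at 1.22 in WT vs Sham, -0.68 in RIPK1 D138N vs WT and -1.58 in TNFR1/2 KO vs WT. Dendritic cell markers summed to at most 0.773 FPKM and B cell markers to at most 2.97 FPKM in any library. The part of these markers in the members' differences was not tested.

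Other genes of the same pathways were read from 9 lists, 83 of whose 89 genes outside the members were found and 60 tested. In WT vs Sham 21 rose and 15 fell, with a median of 0.17, where 58.2% of all genes were called (16.4% higher and 41.9% lower). In RIPK1 D138N vs WT 13 rose and 21 fell (median -0.17), against 51.8% of all genes (29.8% higher and 21.9% lower). The counts in TNFR1/2 KO vs WT were 11 and 13 (median -0.13), against 47.1% (29.6% higher and 17.5% lower). The totals called were thus near the share of all genes in each comparison. With replicate 1 as the only RIPK1 D138N library (n = 1) 11 rose and 12 fell in RIPK1 D138N vs WT. Between the mutants limma called 0 of the 60, with 8 at an unadjusted p under 0.05. With median-of-ratios scaling the counts were 27 and 15 in WT vs Sham, 11 and 24 in RIPK1 D138N vs WT, and 11 and 15 in TNFR1/2 KO vs WT. Quantile normalization gave 28 and 13, 12 and 23, and 10 and 19 in the same comparisons.

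Il33, an alarmin of the interleukin 1 family and the one ligand tested outside the members, rose in WT (1.75 ± 0.644 FPKM) compared with Sham (0.530 ± 0.246). Of the 3 tested interleukin 1 receptors and decoys, all fell in WT vs Sham and Il1rap and Sigirr rose in both mutants against WT. Il1rap, the co-receptor that IL1R1 needs to signal, stood at 48.7 ± 3.20 FPKM in RIPK1 D138N, 55.2 ± 4.98 in TNFR1/2 KO, 9.26 ± 2.89 in WT and 51.9 ± 3.19 in Sham (SD, n = 3 each). Its log2 fold changes were 2.31 (limma adjusted p = 1.78e-06) and 2.49 (adjusted p = 1.37e-06) in the mutants against WT. Both subunits of the receptor were thus below Sham in WT, while in the mutants Il1r1 was low and Il1rap was not called against Sham. Sigirr, an inhibitory receptor of the family, was higher at 10.3 ± 3.996 FPKM in RIPK1 D138N and 5.96 ± 1.14 in TNFR1/2 KO, against 1.57 ± 0.472 in WT. Il18bp, the secreted protein that binds interleukin 18, was lower in WT (1.82 ± 0.124 FPKM) than in Sham (5.02 ± 0.637). Il18bp was also called lower than Sham in both mutants, and in neither mutant was it called against WT. The RIPK1 D138N vs Sham call (-0.76) was lost with quantile normalization (-0.53, limma adjusted p = 0.0620).

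Downstream of the receptor, 4 of the 13 tested signalling genes rose and 3 fell in WT vs Sham, where 58.2% of all genes were called. Against WT, 8 fell in RIPK1 D138N (21.9% of all genes were lower) and 4 in TNFR1/2 KO (17.5% of all genes), and none rose in either. With replicate 1 as the only RIPK1 D138N library (n = 1) 3 fell. Irak3, a kinase-family member that restrains interleukin 1 and Toll-like receptor signalling, stood at 0.161 ± 0.0499 FPKM in RIPK1 D138N, 0.222 ± 0.0696 in TNFR1/2 KO, 5.17 ± 1.13 in WT and 0.731 ± 0.245 in Sham. It changed by 1.83 on the log2 scale in WT vs Sham (limma adjusted p = 2.14e-06) and by -2.39 and -2.32 in the mutants against WT (adjusted p = 7.03e-07 and 8.13e-07). Myd88, the adaptor of these receptors, was lower in RIPK1 D138N (6.10 ± 1.10 FPKM), TNFR1/2 KO (5.67 ± 0.555) and WT (6.64 ± 1.48) than in Sham (25.0 ± 7.63).

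Outside the members, 7 cytokines of the interleukin 6 family were found and 4 tested. Of these 4, Il11, Lif and Clcf1 rose in WT vs Sham, where 16.4% of all genes were higher. The same genes fell against WT in RIPK1 D138N (21.9% of all genes were lower) and TNFR1/2 KO (17.5%). Il11 and Clcf1 passed the filter only through the WT libraries, so a high level in WT was a condition of testing them. Il11, which encodes interleukin 11, read 0.170, 0 and 0 FPKM in RIPK1 D138N, 0.0249, 0.124 and 0 in TNFR1/2 KO, and 7.78, 5.60 and 6.66 in WT, and is listed at 0 in all 3 Sham libraries. Clcf1, a cytokine that signals through the shared subunit gp130, averaged 0.304 ± 0.199 FPKM in RIPK1 D138N, 0.272 ± 0.0273 in TNFR1/2 KO, 7.69 ± 3.61 in WT and 0.135 ± 0.0403 in Sham. The fourth, Ctf1, which encodes cardiotrophin, rose in both mutants against WT but lost this call in RIPK1 D138N with median-of-ratios scaling and without any 1 library of either group, and in TNFR1/2 KO without its replicate 2 or 3. The receptors moved in both directions. Osmr, the oncostatin M receptor, was lower in RIPK1 D138N (0.574 ± 0.156 FPKM) and TNFR1/2 KO (0.628 ± 0.106) than in WT (3.63 ± 0.439), with Sham at 1.17 ± 0.223. Lifr, the receptor of leukemia inhibitory factor, was higher in RIPK1 D138N (83.9 ± 15.3 FPKM) and TNFR1/2 KO (78.8 ± 13.9) than in WT (18.6 ± 4.31), with Sham at 47.8 ± 6.33. Its fall in WT vs Sham (-1.33, limma adjusted p = 0.000167) was lost with quantile normalization (-0.56, adjusted p = 0.0573).

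**Figure D4:**
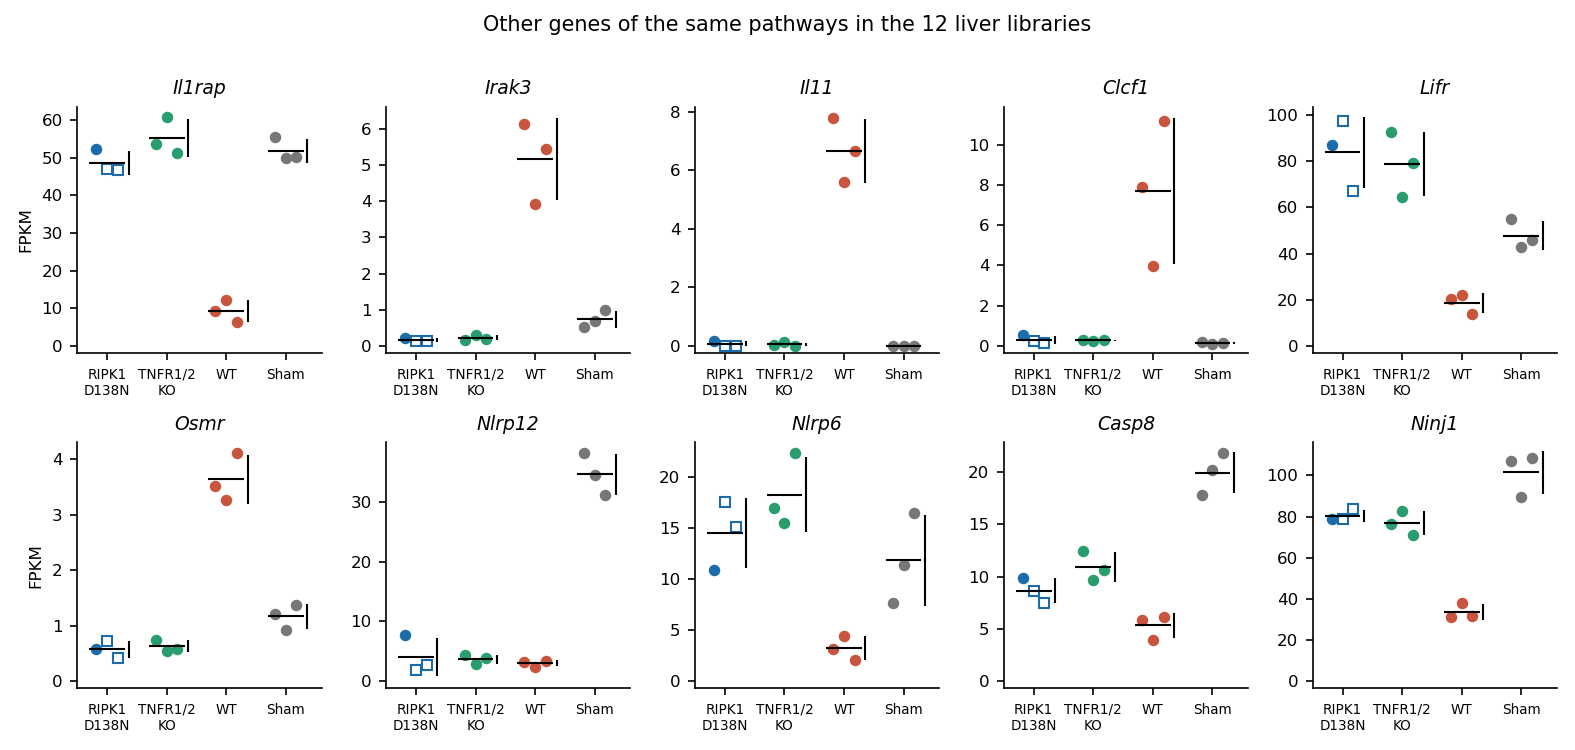
FPKM of 10 other genes of these pathways in every library (points), with the group mean (line) and ± SD (bar, n = 3); open squares mark RIPK1 D138N replicates 2 and 3. Irak3, Il11, Clcf1 and Osmr stand above the other groups in WT, Il1rap, Lifr, Nlrp6, Casp8 and Ninj1 stand below them, and Nlrp12 stands above the others in Sham.

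Among inflammasome sensors and adaptors, 5 of the 14 found outside the members were tested. Nlrp12, a sensor known for damping inflammation in the mouse, was lower in every ischemia group, at 4.10 ± 3.18 FPKM in RIPK1 D138N, 3.64 ± 0.739 in TNFR1/2 KO and 3.03 ± 0.573 in WT, against 34.6 ± 3.47 in Sham. The log2 fold change was -3.15 in WT vs Sham (SE 0.323, limma adjusted p = 4.98e-06). Nlrp6, a sensor best known from the intestine, was higher in RIPK1 D138N (14.5 ± 3.39 FPKM) and TNFR1/2 KO (18.3 ± 3.64) than in WT (3.24 ± 1.16), with Sham at 11.9 ± 4.46. Nek7, which binds NLRP3 during its activation, fell in WT vs Sham and in both mutants against Sham, and Txnip, which encodes a thioredoxin-binding protein, rose in the same 3 comparisons. The Txnip call in RIPK1 D138N vs Sham was lost without RIPK1 D138N replicate 3 (limma adjusted p = 0.112) and without either of 2 Sham libraries (adjusted p = 0.0556 and 0.0914). With replicate 1 as the only RIPK1 D138N library (n = 1) Nek7 stood at -1.19 against Sham (limma adjusted p = 0.0546), compared with -1.31 with all 3, and Txnip at 0.66 (adjusted p = 0.267).

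Among genes of cell death and membrane rupture, Casp8 and Ninj1 fell in WT vs Sham and rose in both mutants against WT. Ninj1, which ruptures the plasma membrane after gasdermin pores have formed, stood at 80.3 ± 2.95 FPKM in RIPK1 D138N, 76.7 ± 5.85 in TNFR1/2 KO, 33.5 ± 3.81 in WT and 101 ± 10.5 in Sham. Casp8, an initiator caspase that cleaves RIPK1, averaged 8.67 ± 1.17 FPKM in RIPK1 D138N, 10.9 ± 1.42 in TNFR1/2 KO, 5.33 ± 1.182 in WT and 20.0 ± 2.00 in Sham. Among guanylate-binding proteins and related GTPases, which act on intracellular bacteria upstream of Casp4, 3 of 7 rose in WT vs Sham, against 16.4% of all genes. Compared with Sham, 5 of the 7 rose in RIPK1 D138N (7.51% of all genes) and 4 in TNFR1/2 KO (7.46%). The TNFR1/2 KO calls of Gbp7 and Igtp were lost without its replicate 1 or 3. With replicate 1 as the only RIPK1 D138N library (n = 1) Gbp3 stood at 0.39 against Sham and Igtp at 1.02, compared with 1.11 and 1.46 with all 3. Gbp2 was lower in RIPK1 D138N (1.89 ± 0.378 FPKM) and TNFR1/2 KO (1.80 ± 0.466) than in WT (3.85 ± 0.563), and Igtp was higher, at 22.4 ± 5.85 and 13.7 ± 1.62 FPKM against 5.43 ± 1.56 in WT.

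Of 8 tested regulators of cytokine mRNA and transcription, 5 were called higher and none lower in WT vs Sham, against 16.4% higher and 41.9% lower among all genes. In TNFR1/2 KO vs Sham the same 5 were higher and none lower, against 7.46% and 18.1% of all genes. In RIPK1 D138N vs Sham 3 were higher and 1 lower, against 7.51% and 22.7%. Nfkbiz, which encodes a nuclear partner of NF-kappaB needed for Il6 induction, stood at 11.1 ± 1.13 FPKM in RIPK1 D138N, 20.3 ± 6.54 in TNFR1/2 KO, 12.2 ± 2.56 in WT and 1.85 ± 0.786 in Sham. It rose against Sham in RIPK1 D138N (2.11), TNFR1/2 KO (2.89) and WT (2.23). In the same comparisons Il6 stood at 0.69 (limma adjusted p = 0.279) in TNFR1/2 KO and was called in WT. Fitted on those 2 groups alone, the TNFR1/2 KO difference of Il6 was called (adjusted p = 0.0248). Arid5a, which stabilizes Il6 mRNA, fell in both mutants against WT, at 2.02 ± 1.22 FPKM in RIPK1 D138N and 3.62 ± 0.368 in TNFR1/2 KO against 9.40 ± 1.34 in WT, but the call in TNFR1/2 KO was lost without 1 of the WT libraries (-1.07, limma adjusted p = 0.0636), and RIPK1 D138N stood at -1.26 (adjusted p = 0.0508) with its replicate 1 alone (n = 1). Zc3h12a, an RNase that degrades Il6 and Il1b transcripts, was lower in RIPK1 D138N (1.19 ± 0.691 FPKM) than in WT (4.58 ± 0.314), with Sham at 1.31 ± 0.139. In TNFR1/2 KO vs Sham Zc3h12a was called at 0.85, a call lost without TNFR1/2 KO replicate 2 or 3.

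**Figure D5:**
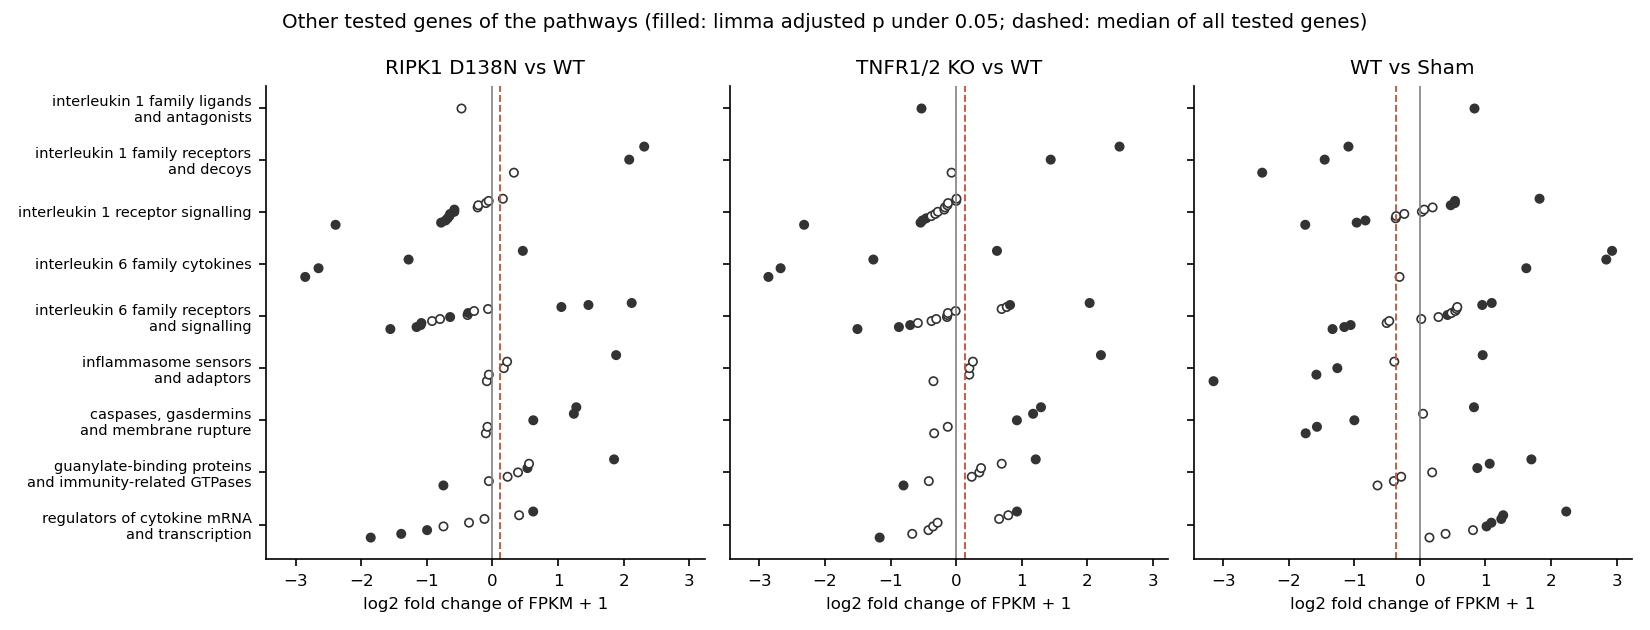
Log2 fold change of FPKM + 1 of the 60 tested pathway genes outside the 10 members (points; filled where limma adjusted p is under 0.05) by list, in RIPK1 D138N vs WT, TNFR1/2 KO vs WT and WT vs Sham; the dashed line is the median of all 11728 tested genes. Interleukin 6 family cytokines reach above 2 in WT vs Sham and below -2 in both mutants against WT, while the called interleukin 1 receptors lie on the opposite side of 0 in each panel.

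The tested genes whose pattern over the 12 libraries was most like each member were taken by the root mean square difference of log2(FPKM + 1), each gene centred on its mean. For Il1rn they were Il11 (0.28), Btc, the growth factor betacellulin (0.33), and Procr, the endothelial protein C receptor (0.33). Btc averaged 0.350 ± 0.287 FPKM in RIPK1 D138N, 1.06 ± 0.477 in TNFR1/2 KO, 10.5 ± 1.79 in WT and 0.404 ± 0.270 in Sham. For Il6 the nearest genes were Emp1 (0.27) and the chemokines Cxcl3 (0.32) and Cxcl5 (0.36). Il1b lay nearest to Clec4d, a myeloid lectin receptor (0.34), Cd9 (0.34) and Lilr4b (0.37). For Il18 they were Thnsl2 (0.23), Aqp11, a water channel (0.25), and Ghr, the growth hormone receptor (0.26). Ghr stood at 142 ± 6.53 FPKM in RIPK1 D138N, 166 ± 10.04 in TNFR1/2 KO, 37.3 ± 11.5 in WT and 138.1 ± 11.6 in Sham. Il1r1 lay nearest to Slc41a2, a magnesium transporter (0.26), Fga, the fibrinogen alpha chain (0.33), and Tifa, an adaptor of TRAF proteins (0.36). Casp4 lay nearest to Nfx1 (0.21) and Gsdmd to Pir (0.15), beside their own SD of 0.41 and 0.36 over the 12 libraries on the log2 scale, against 1.34 for Il1rn. Likeness here describes these libraries, which share groups and depth.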

How the data were processed

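RNA was extracted with Trizol and libraries were made with an NEB RNA Ultra kit, per the labels' protocols. The authors deposited 1 table of FPKM per gene and library. The submitters' processing notes name the mm10 build and, as software, Cuffdiff, Cufflinks 2.2.1 and STAR 2.5.4a. A strand setting is not among them. Columns of RIPK1 D138N and TNFR1/2 KO matched numbered samples, and those of WT and Sham only their group, so the order of WT and Sham values carries no number. GENCODE M21 held 53702 of 53796 gene identifiers (99.8%) and supplied coordinates. A symbol on several lines was read from the one with the highest mean.

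FPKM carries no count. In single-transcript genes 89.7 to 93.0% of the lowest values lay within 0.03 of whole fragments, which gave the fragment scale used to state depth. Exact zeros may be failed estimates.

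Limma 3.58.1 in R 4.3.3 fitted log2(FPKM + 1) with a mean-variance trend, as 4 group means over 12 libraries, for 11728 genes with at least 1 FPKM in 3 libraries or more. P-values were adjusted by Benjamini-Hochberg over all of them within a comparison. The procedure was tested on simulated data. Alternatives were a pseudocount of 0.1, filters of 0.1 FPKM or none, median-of-ratios scaling, quantile normalization, only the 2 groups compared, each library left out, a replicate block for the mutants, and, added after the data were seen, leaving out the Xist-positive libraries. Summaries, sequences and figures were made in Python 3.11.15.

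The 10 members, the 9 pathway lists and the 11 marker lists were chosen with earlier results of these data known. Named pathway genes are, per list and comparison, at most 4 called genes with the largest change, provided the higher group averaged 1 FPKM or more; the genes named beyond them, such as Il1r2, Bco2 and the marker genes, were chosen after their values were seen. Some genes of the pathway lists enter the totals but are not reported here by name. Likeness lists the 3 nearest genes per called member.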

Additional observations from a re-analysis of the deposited data

How the results depend on the processing

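The calls of Il1rn, Il1r1, Il6 and Il18 in WT vs Sham, of Il1rn, Il1r1 and Il18 in RIPK1 D138N vs WT, of Il1rn and Il18 in TNFR1/2 KO vs WT, and of Il1r1 in both mutants against Sham kept their direction and stayed under the threshold in every alternative. Of 320 values under settings other than leaving out 1 library, 285 kept both direction and side of the threshold, 15 lost the call, 8 gained one and 12 changed sign. Of 288 values with 1 library left out, 245 kept both, 22 lost the call, 7 gained one and 14 changed sign. The cause of these changes was not tested.

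The count of called members was 3 in TNFR1/2 KO vs WT and 1 in TNFR1/2 KO vs Sham with no filter on low values, and 3 in RIPK1 D138N vs Sham without the Xist-positive libraries, where 1 RIPK1 D138N library is left and the spread comes from the other groups. With 1 library left out it was 4 to 6 in WT vs Sham, 3 to 6 in RIPK1 D138N vs WT and in TNFR1/2 KO vs WT, 1 to 1 in RIPK1 D138N vs Sham, 1 to 2 in TNFR1/2 KO vs Sham and 0 to 1 in RIPK1 D138N vs TNFR1/2 KO. In TNFR1/2 KO vs WT the count was 3 without replicate 1 or 3 of TNFR1/2 KO, and also without either of 2 WT libraries. In TNFR1/2 KO vs Sham it was 1 without its replicate 1 and without 1 Sham library.

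No difference that changed sign was called with all 12 libraries. Without the Xist-positive libraries they were, in RIPK1 D138N vs WT, Il1b at 0.52 and Il1a at -0.11. In RIPK1 D138N vs Sham they were Il1a at -0.0205, Il1rn at 0.0750 and Gsdmd at 0.13, and in RIPK1 D138N vs TNFR1/2 KO Il6 at 1.22 and Casp4 at 0.43. Median-of-ratios scaling gave Il1rn 0.0381 and Gsdmd 0.0181 in RIPK1 D138N vs Sham and Il6 0.0248 in RIPK1 D138N vs TNFR1/2 KO, and quantile normalization gave Gsdmd 0.0769 and Il6 0.0839 in the same comparisons. With 1 library left out the range in RIPK1 D138N vs Sham was -0.37 to 0.67 for Il1b, -0.20 to 0.0564 for Il1rn and -0.0812 to 0.37 for Casp4. In TNFR1/2 KO vs Sham it was -0.44 to 0.0585 for Il1b and -0.19 to 0.36 for Il1rn. In RIPK1 D138N vs TNFR1/2 KO it was -0.20 to 0.84 for Il1b, -0.47 to 0.0799 for Il1rn, -0.63 to 0.33 for Il6 and -0.33 to 0.0869 for Casp4.

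RIPK1 D138N and TNFR1/2 KO share replicate numbers. Deviations of same-numbered libraries from their group means correlated at -0.10, -0.20 and 0.06, so the numbers were not taken as pairing. The fit with a replicate block called 0 of 8 members, as without it, and 11 of all genes in place of 109. No paired analysis was possible for the other comparisons because the WT and Sham columns carry no numbers. Low values limit Nlrp3 and Casp1 throughout, and Il6, Il1a, Il1b and Casp4 in the shallowest Sham libraries.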
